A study of Homo sapiens with 6 samples.

Results

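Ribosome assembly factors are the proteins that build ribosomal subunits in the nucleolus and are not part of the finished ribosome. The 56 genes described here were taken by symbol from a fixed list that includes FCF1, and all 56 had a row among the 20042 genes of the count table. They were measured by RNA sequencing in cultures of MDA-MB-231, a long-established cell line from a human breast cancer, transfected with siRNA-1, a small interfering RNA directed against ERBBride (3 libraries, genotype label ERBBride knock down), or with a control siRNA, siCTRL (3 libraries, genotype label WT). The libraries of a group are labelled as biological replicates 1 to 3. Nothing says that they came from separate cultures, and p-values here therefore measure only the spread between these samples, which may be technical. By its title the series concerns EGFR stability and a long non-coding RNA, and the comparison asks which transcripts differed after the siRNA against ERBBride. No row was named ERBBride, so the knockdown could not be checked, and only 1 siRNA against it was used.

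RNA polymerase I transcribes the long precursor of the ribosomal RNAs, and the small-subunit processome assembles on it with the U3 small nucleolar RNA as it is made. Box C/D proteins act in methylation and H/ACA proteins in pseudouridylation of the precursor. Nucleases, helicases and GTPases cut and fold the precursor into the 40S and 60S subunits. Tumour cells need a high rate of this process to grow, and many of the genes are textbook targets of the transcription factor MYC.

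The libraries held 12813706 to 15014434 counts each, and 3 counts corresponded to at most 0.234 CPM (read counts scaled to library size), a limit that covers counting error only. The control library siCTRL 2 stood apart: its score on the second principal component was -22.3, while the remaining libraries scored -2.90 to 13.3. In 37 of the 55 members tested, siCTRL 2 lay below both other controls, and the same count over all genes was not made. Its median log2 difference from their mean was -0.10 over the members and 0.002 over all genes tested. The part of siCTRL 2 in the results is shown by the values without it. The markers expected in this line (VIM, CD44, CAV1, EGFR, AXL and ZEB1) had at least 10 counts in every library. Their summed level was 3762 to 3925 CPM in siRNA-1 and 6464 to 6727 CPM in siCTRL libraries, and 5 of the 6 fell. AXL fell most, by 1.16 on the log2 scale. The luminal marker PGR, the blood markers CD3E, HBA1 and HBB and the endothelial marker CDH5 had 0 counts in every library. At least 10 counts in every library were found for 2 of 6 luminal, 1 of 5 blood and 1 of 4 endothelial markers. Among these, GATA3 (luminal), CD14 (blood) and PECAM1 (endothelial) fell by 1.35, 1.17 and 0.86 on the log2 scale. The summed level of 6 luminal markers was 531 to 546 CPM in siRNA-1 and 690.5 to 711 CPM in siCTRL libraries. That of 5 blood markers was 7.47 to 8.74 CPM in siRNA-1 and 14.6 to 19.4 CPM in siCTRL libraries. That of 4 endothelial markers was 3.82 to 5.10 CPM in siRNA-1 and 6.91 to 8.70 CPM in siCTRL libraries. The part of these shifts in the results was not tested. The marker levels above and all levels from here on are CPM scaled by TMM, the trimmed mean of M values. A fold change is siRNA-1 over siCTRL. In bulk RNA, fewer cells with a transcript and less of it per cell cannot be told apart.

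Most assembly factors were modestly higher in siRNA-1 cells, and FCF1 was far lower. Of 55 members tested, 37 rose, 4 fell and 14 did not pass the test (edgeR quasi-likelihood test, Benjamini-Hochberg adjusted p under 0.05 over all 12440 genes tested). Over all genes tested, 62.5% passed the test: 31.5% rose and 31.0% fell. The median log2 fold change of the members was 0.32, against 0.01 over all genes tested. The rises were small, from 1.09-fold to 1.91-fold, and 11 members rose at least 1.5-fold while 2 fell by as much, against 9.40% and 16.9% of all genes. The 4 members that fell were FCF1, WDR43, TBL3 and RRP1B. Without siCTRL 2, 37 members rose and 4 fell, with 35 rises shared. Of all 12562 genes then tested, 4329 (34.5%) rose and 4306 fell. WDR75 and NIP7 no longer passed, while UTP20 and NPM1 did. At least 1.5-fold rises were then called in 8 members and in 1178 of all genes. The median of the members was then 0.28.

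**Figure D1:**
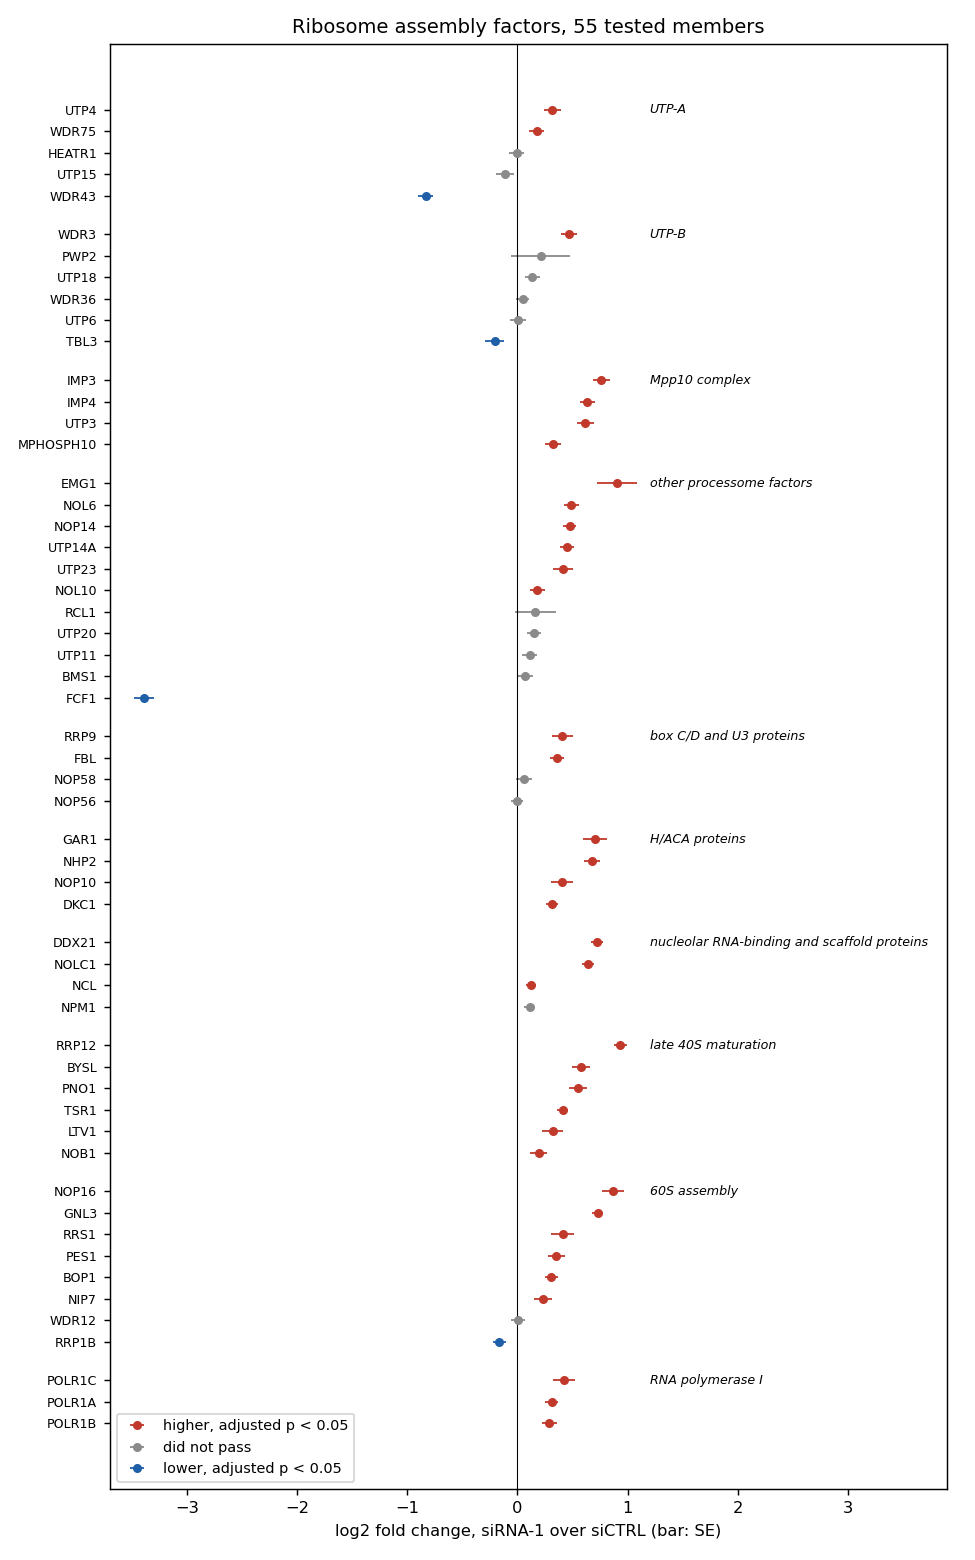
Log2 fold change of each of the 55 tested members, siRNA-1 over siCTRL, grouped by role; points are the edgeR estimates, bars their SE and colours the call at an adjusted p of 0.05. FCF1 lies at -3.39, WDR43 at -0.83 and every other member between -0.21 and 0.93.

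The rise was seen in every siRNA-1 library. The median over the members of the log2 difference from the siCTRL mean, computed on log2(CPM + 1), was 0.32, 0.30 and 0.31 in siRNA-1 replicates 1 to 3, against 0.03, -0.07 and 0.04 in siCTRL 1 to 3. Over all genes tested the same median lay between 0.00 and 0.02 in each library. The siRNA-1 libraries all lay above the siCTRL libraries in 41 of the 55 members and all below them in 5, against 34.6% and 33.0% of all genes tested. These counts include the 37 members that rose, the 4 that fell and 5 that did not pass.

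**Figure D2:**
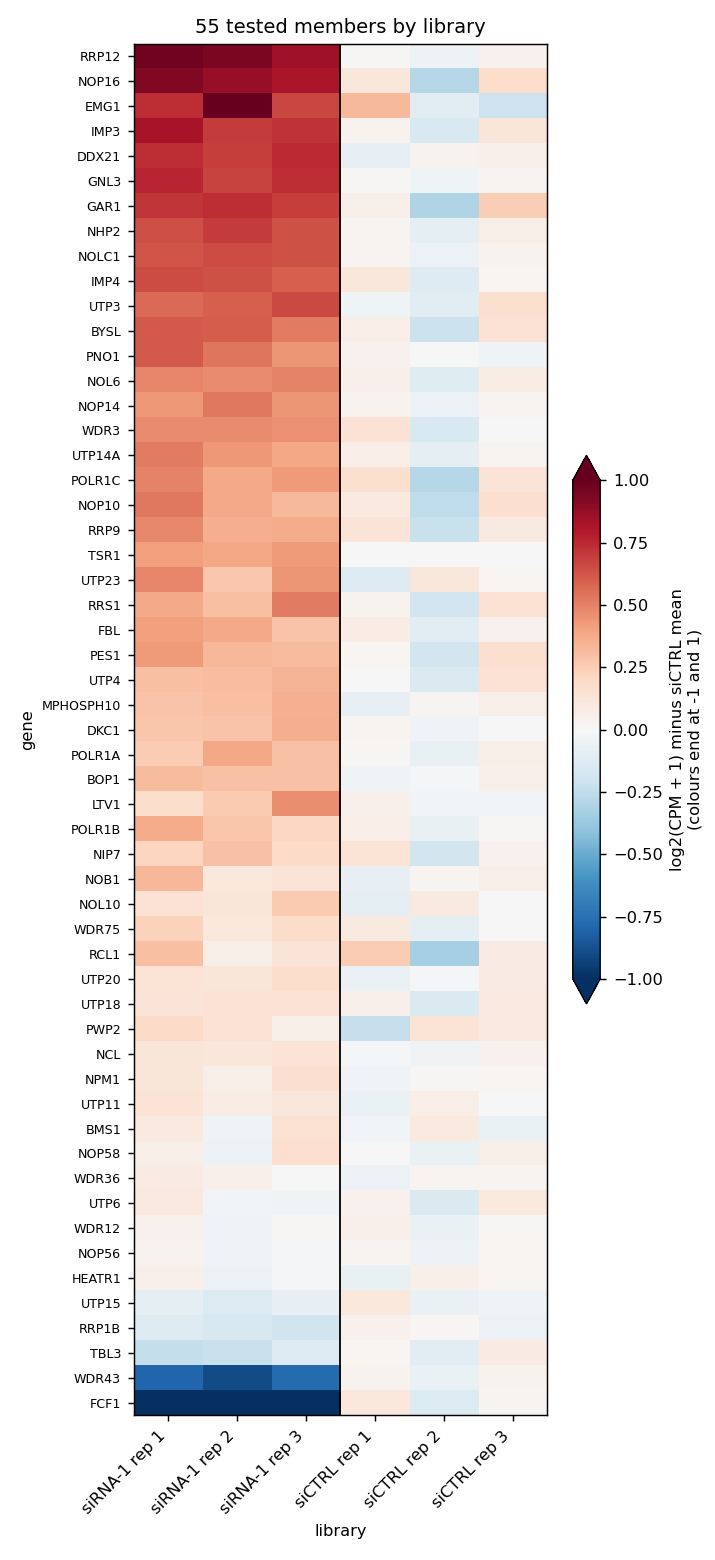
Level of the 55 tested members (rows, ordered by their mean difference in siRNA-1) in each library (columns), as log2(CPM + 1) minus the siCTRL mean of the gene; colours end at -1 and 1. The siRNA-1 columns are red for most rows and blue in the bottom rows, and siCTRL replicate 2 is light blue in many rows where the other controls are near white or pale red.

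FCF1 encodes the human counterpart of yeast Utp24, a PIN-domain endonuclease of the small-subunit processome that cuts the precursor around the 18S sequence. FCF1 had 7.33, 7.82 and 7.70 CPM in siRNA-1 replicates 1 to 3 (105, 118 and 113 counts), against 85.7, 72.4 and 81.3 CPM in siCTRL 1 to 3 (1253, 932 and 1094 counts). All siRNA-1 libraries were close together and far below every control. It averaged 7.62 ± 0.251 CPM in siRNA-1 and 79.8 ± 6.81 CPM in siCTRL cells (SD, n = 3 each), a fall of 10.5-fold (log2 fold change -3.39, SE 0.092, adjusted p = 4.4e-10, edgeR), which left 9.55% of the control level. A fall of this size or larger was called in 9 of the 12440 genes tested (0.0723%), FCF1 included. FCF1 was listed by name with its fall already known from these data. Per kilobase of exon merged over all annotated transcripts, a rough scale for comparing genes, it had 1.60 ± 0.0529 CPM in siRNA-1 and 16.8 ± 1.43 CPM in siCTRL cells. On that scale its level stood at position 53 of the 56 members in siRNA-1 and at position 23 in siCTRL cells.

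**Figure D3:**
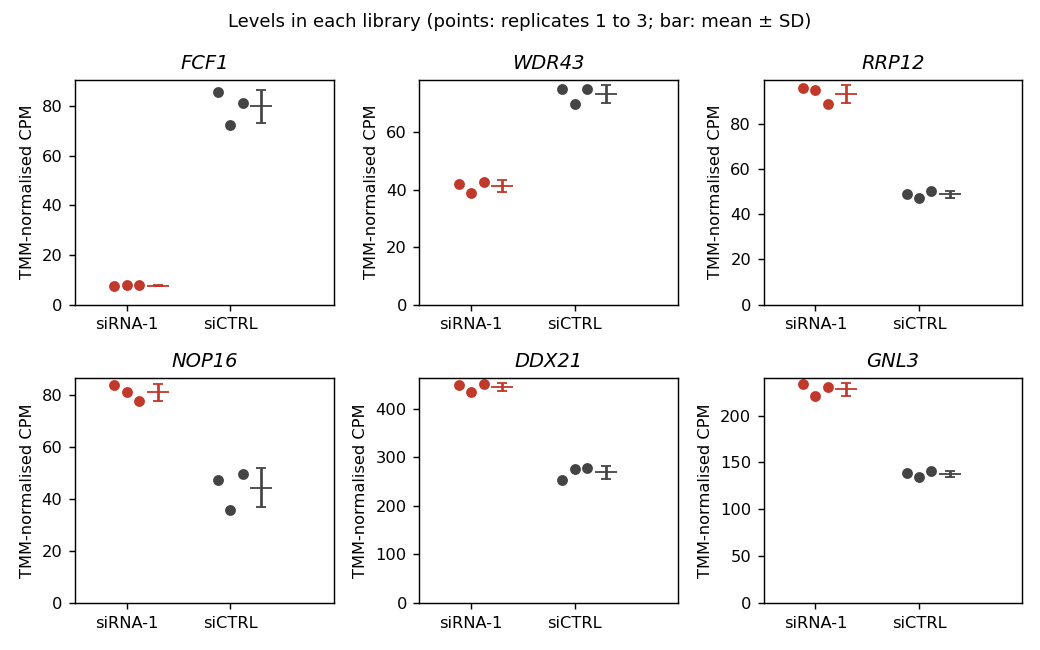
TMM-normalised CPM of 6 members in each library; points are replicates 1 to 3, and the bar beside them is the mean ± SD. FCF1 and WDR43 lie lower in all siRNA-1 libraries than in all siCTRL libraries, and RRP12, NOP16, DDX21 and GNL3 lie higher.

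FCF1 (ENSG00000119616) lies on chromosome 14 of the GRCh38 assembly, plus strand, 74713144 to 74738620, and no exonic base of it overlaps another gene in GENCODE release 29. That release names 10 pseudogenes after FCF1, and reads shared with them cannot be assigned with certainty. In an earlier analysis of the same counts, the 7-base sequence GCTCACT was picked as the one most enriched in the 3' untranslated regions (UTRs) of genes that fell. The 3' UTR of the FCF1 transcript with the longest coding sequence, 3690 bases long, holds 4 copies. They are shown with their flanks because FCF1 is the member with the largest fall and the most copies. Capitals mark the 7 bases, and each line reads 5′ to 3′ on the plus strand.
FCF1 copy at chr14:74735345-74735373: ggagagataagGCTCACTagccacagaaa
FCF1 copy at chr14:74735552-74735580: tagttcaatatGCTCACTctttttttttt
FCF1 copy at chr14:74735628-74735656: gcgtgatctggGCTCACTgcaacccctgc
FCF1 copy at chr14:74735857-74735885: gtgcctggcctGCTCACTttctgatgctg

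At least 4 copies were present in 72 of the 11954 tested genes with a 3' UTR of 50 bases or more (0.602%). Those 72 genes had a median log2 fold change of -0.06, and 28 of them fell. Among the tested members with such a 3' UTR, 10 held GCTCACT, and of these 3 fell (FCF1, WDR43 and TBL3), 3 rose (WDR3, PNO1 and POLR1A) and 4 did not pass (WDR12, UTP6, UTP11 and UTP20). Of the 44 members without it, 1 fell (RRP1B) and 33 rose. Over all tested genes, 50.2% of those with the sequence and 27.4% of those without it fell. Since these counts served to pick the sequence, both this gap and the split among the members, WDR43 and TBL3 included, restate that choice and support nothing. The median 3' UTR was 3075 bases in members with the sequence and 427.5 bases in members without it, and the part of UTR length in these counts was not tested. WDR43 and TBL3, shown because they fell too, hold 1 copy each and also lie on plus strands. Both lines read as those of FCF1 do.
WDR43 copy at chr2:28947905-28947933: attggcttagtGCTCACTaggggacatgc
TBL3 copy at chr16:1979039-1979067: gggatcctcgcGCTCACTgctccgtcgtg
In FCF1, 1 of the 4 copies was followed directly by GC, as in Alu repeats. In the 10 other members that hold the sequence, the untested NOP2 among them, 10 of 13 copies were. Whether any copy lies in an Alu repeat was not tested.

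**Figure D4:**
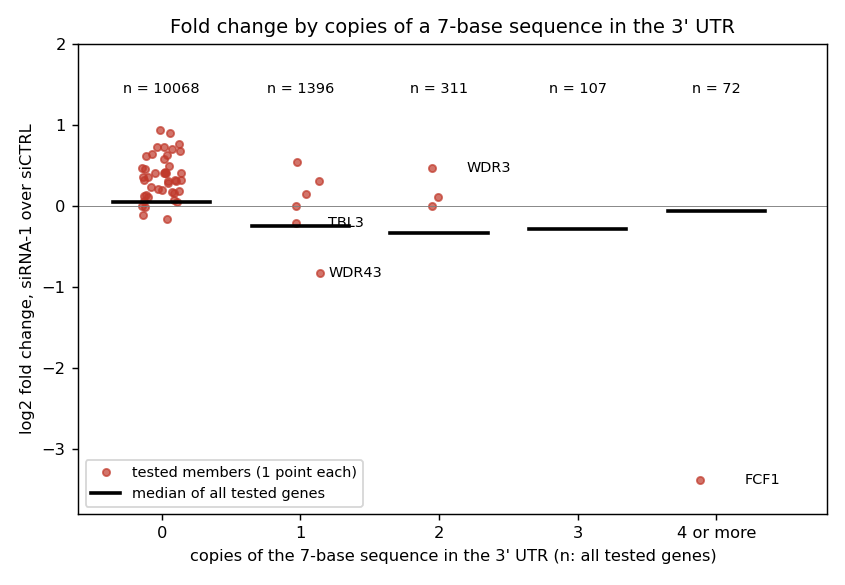
Log2 fold change, siRNA-1 over siCTRL, of each tested member against the number of copies of the 7-base sequence in its 3' UTR; black bars are medians of all tested genes with that number of copies, with n above. FCF1 has 4 copies and lies at -3.39, and the median of all genes with at least 4 copies is -0.06.

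The genes beside FCF1 fell far less or did not pass. AREL1, a ubiquitin ligase gene on the minus strand, has its annotated start 28 bases away from that of FCF1, head to head with it. AREL1 averaged 72.6 ± 2.74 CPM in siRNA-1 and 91.2 ± 5.22 CPM in siCTRL cells (SD, n = 3 each), a fall of 1.26-fold (adjusted p = 0.000708, edgeR). LTBP2, which encodes a matrix protein and lies beyond AREL1, fell by 0.68 on the log2 scale (adjusted p = 7.6e-06). ISCA2, YLPM1, PROX2 and DLST, the other tested genes among the 3 nearest on either side, had log2 fold changes of 0.01, 0.12, 0.38 and -0.11 and did not pass.

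The UTP-A complex binds the start of the precursor before other processome parts and is linked to its transcription. Its 5 members split, with 2 higher, 1 lower and 2 that did not pass. WDR43 had 42.0, 38.9 and 42.7 CPM in siRNA-1 replicates 1 to 3, against 75.1, 69.9 and 75.2 CPM in siCTRL 1 to 3. The groups lay far apart, and the fall was 1.78-fold (log2 fold change -0.83, SE 0.066, adjusted p = 6.1e-07, edgeR); a fall as large or larger was called in 11.0% of all genes tested. UTP4, mutated in a childhood cirrhosis, had 74.0, 74.4 and 76.1 CPM in siRNA-1, against 59.9, 54.1 and 66.2 CPM in siCTRL replicates 1 to 3. Its rise was 0.32 on the log2 scale (adjusted p = 0.00258, edgeR), with every siRNA-1 value above every control. WDR75 rose (log2 fold change 0.17, adjusted p = 0.0367, edgeR), a call that was lost without siCTRL 2 (0.12) and in other settings. UTP15 (-0.11) and HEATR1 (-0.01) did not pass.

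The UTP-B complex, a scaffold that chaperones U3 on the precursor, also moved little as a group, with 1 of 6 members higher and 1 lower. WDR3 had 100.3, 99.9 and 98.9 CPM in siRNA-1, against 79.7, 64.5 and 72.2 CPM in siCTRL replicates 1 to 3, a rise of 1.38-fold (adjusted p = 0.000158, edgeR). TBL3 had 23.3, 23.6 and 25.1 CPM in siRNA-1, against 28.1, 25.6 and 29.4 CPM in siCTRL replicates 1 to 3. That fall of 1.16-fold was close to the threshold (adjusted p = 0.0476) and was lost in 10 of 14 other settings. UTP18 (log2 fold change 0.14), WDR36 (0.05), UTP6 (0.00) and PWP2 (0.21, at 1.70 ± 0.126 CPM in siRNA-1 and 1.48 ± 0.335 CPM in siCTRL cells) did not pass.

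All 4 genes listed with the Mpp10 complex, a part of the processome that acts with U3, rose. IMP3 had 76.1, 69.7 and 70.7 CPM in siRNA-1, against 43.5, 38.1 and 46.2 CPM in siCTRL replicates 1 to 3. The rise was 1.69-fold (log2 fold change 0.76, SE 0.077, adjusted p = 4.9e-06, edgeR), and 59.3% of the exonic bases of IMP3 overlap genes on the opposite strand. IMP4, which like IMP3 binds MPHOSPH10, had 88.3, 87.5 and 85.2 CPM in siRNA-1, against 60.4, 50.9 and 56.7 CPM in siCTRL replicates 1 to 3 (adjusted p = 8.2e-06). Both IMP genes were thus higher in every siRNA-1 library than in any control. UTP3 had 67.2, 68.6 and 71.9 CPM in siRNA-1, against 43.7, 41.6 and 50.4 CPM in siCTRL replicates 1 to 3, again without overlap. The log2 fold changes were 0.63 for IMP4, 0.61 for UTP3 and 0.32 for MPHOSPH10. The median of these 4 genes was 0.62, the highest of the 10 role groups.

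Among the 11 other processome factors, 6 rose, 4 did not pass and FCF1 alone fell. The rises included NOL6 (log2 fold change 0.49), NOP14 (0.47) and UTP14A (0.45), whose yeast counterpart activates a processome helicase. They also included NOL10 (0.18), a call that did not hold in every setting, and UTP23 (0.41), which like FCF1 carries a PIN domain. UTP23 had 41.2, 35.3 and 39.8 CPM in siRNA-1, against 26.5, 31.6 and 29.4 CPM in siCTRL replicates 1 to 3, opposite in direction to FCF1. EMG1, a methyltransferase of 18S ribosomal RNA, had 9.64, 12.1 and 9.13 CPM in siRNA-1, against 6.98, 4.89 and 4.53 CPM in siCTRL replicates 1 to 3. This was the largest rise of the group, 1.87-fold (adjusted p = 0.000929, edgeR), at a gene of which 49.5% of exonic bases overlap another gene on the opposite strand. UTP11 (0.11), UTP20 (0.15), the GTPase gene BMS1 (0.07) and RCL1 (0.16) did not pass.

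Among proteins of the modification particles, all 4 H/ACA genes rose (median 0.54 on the log2 scale). GAR1 had 70.3, 71.3 and 69.2 CPM in siRNA-1, against 44.1, 34.2 and 50.6 CPM in siCTRL replicates 1 to 3, a rise of 1.63-fold (adjusted p = 0.000135, edgeR). NHP2 had 48.8, 50.6 and 48.5 CPM in siRNA-1, against 31.5, 28.9 and 32.1 CPM in siCTRL replicates 1 to 3. In both genes the lowest siRNA-1 value lay well above the highest control. NHP2 rose by 0.68, NOP10 by 0.41 and DKC1, the pseudouridine synthase that also belongs to telomerase, by 0.31 on the log2 scale. Of the box C/D and U3 proteins, FBL, the methyltransferase fibrillarin, rose by 0.36, and the core protein genes NOP56 (log2 fold change -0.01) and NOP58 (0.06) did not pass. NOP56 had 158.9, 151 and 154 CPM in siRNA-1, against 158.7, 150.2 and 157 CPM in siCTRL replicates 1 to 3, and the groups overlapped. RRP9, which binds U3, had 44.6, 40.9 and 41.3 CPM in siRNA-1, against 34.6, 27.0 and 33.8 CPM in siCTRL replicates 1 to 3, a rise of 1.33-fold (adjusted p = 0.00252). Whether the H/ACA and box C/D classes differ was not tested.

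Abundant nucleolar proteins were among the genes with the highest levels. Per kilobase of exon in siCTRL cells, NPM1 (nucleophosmin) ranked 1 of 56 at 147 CPM and NCL (nucleolin) ranked 3 at 108 CPM. Both differed little, NCL with a log2 fold change of 0.12 (adjusted p = 0.0382, edgeR) and NPM1 with 0.11 (adjusted p = 0.0697), and GENCODE names 45 pseudogenes after NPM1. The call of NCL did not hold in every setting. DDX21, a nucleolar RNA helicase, had 448, 434 and 450.2 CPM in siRNA-1, against 253, 276 and 278 CPM in siCTRL replicates 1 to 3. All siRNA-1 values were well above the controls, a rise of 1.65-fold (adjusted p = 3.9e-07). NOLC1, which encodes the scaffold Nopp140, had 323, 329 and 325 CPM in siRNA-1, against 212, 200.3 and 214 CPM in siCTRL replicates 1 to 3, a rise of 1.56-fold (adjusted p = 6.9e-07).

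All 6 factors of late 40S maturation rose (median 0.48 on the log2 scale). RRP12, a repeat protein of subunit export, had the largest rise in the whole list. It had 96.2, 95.0 and 89.0 CPM in siRNA-1, against 49.2, 47.2 and 50.3 CPM in siCTRL replicates 1 to 3, so that every siRNA-1 value was well above the controls (1.91-fold, log2 fold change 0.93, SE 0.061, adjusted p = 1.5e-07, edgeR). BYSL, which encodes bystin, had 108, 107 and 101 CPM in siRNA-1, against 73.8, 60.5 and 77.8 CPM in siCTRL replicates 1 to 3, with siCTRL 2 the lowest. By log2 fold change BYSL (0.58), PNO1 (0.55), TSR1 (0.41), LTV1 (0.32) and NOB1 (0.19) followed. NOB1 is the PIN-domain nuclease that makes the mature end of 18S ribosomal RNA, and PNO1 is its partner. NOB1 had 62.4, 53.3 and 54.3 CPM in siRNA-1, against 46.8, 50.4 and 51.5 CPM in siCTRL replicates 1 to 3 (adjusted p = 0.0441), and like the rise of LTV1 this call did not hold in every setting.

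Among 8 tested factors of 60S assembly, 6 rose, 1 fell and 1 did not pass. NOP16 had 84.0, 81.1 and 77.8 CPM in siRNA-1, against 47.4, 35.7 and 49.7 CPM in siCTRL replicates 1 to 3, a rise of 1.83-fold (adjusted p = 1.4e-05, edgeR). GNL3, which encodes the GTPase nucleostemin, had 234, 220.3 and 229.9 CPM in siRNA-1, against 139, 134 and 141 CPM in siCTRL replicates 1 to 3, a rise of 1.65-fold (adjusted p = 3.1e-07). The groups were far apart for both. RRS1 rose by 0.41 and NIP7 by 0.23 on the log2 scale. The call of NIP7 was lost without siCTRL 2 (log2 fold change 0.13) and in other settings. Of the PES1, BOP1 and WDR12 complex, which is needed to process the 60S ribosomal RNAs, PES1 (0.35) and BOP1 (0.31) rose and WDR12 (0.01) did not pass. RRP1B had 66.5, 65.3 and 63.6 CPM in siRNA-1, against 75.1, 73.9 and 69.9 CPM in siCTRL replicates 1 to 3, a fall of 1.12-fold (adjusted p = 0.0287) that was lost in 8 of 14 other settings. NOP2, a methyltransferase of 28S ribosomal RNA, had 3, 4 and 5 counts in siRNA-1, against 5, 2 and 1 in siCTRL replicates 1 to 3, and was not tested. A same-strand gene covers 54.4% of the exonic bases of NOP2, so reads there cannot be given to either gene with certainty.

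The genes of RNA polymerase I rose at all 3 members listed. POLR1C, a subunit shared with RNA polymerase III, had 75.1, 68.9 and 71.2 CPM in siRNA-1, against 59.3, 43.2 and 57.8 CPM in siCTRL replicates 1 to 3, a rise of 1.34-fold (adjusted p = 0.00323, edgeR). POLR1A, the largest subunit, rose by 0.31 and POLR1B by 0.29 on the log2 scale. POLR1C was lowest in siCTRL 2, and without that library its log2 fold change was 0.28, against 0.42 with it.

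No source used here gives the strand setting of the counting. Of the 39 members with under 10% of exonic bases overlapping another gene on either strand, 23 rose and 3 fell. Of the 16 tested members with 10% or more, 14 rose and 1 fell.

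Other genes of the pathway were taken from lists of known assembly factors. Of the tested genes in 6 lists, 74 rose, 13 fell and 44 did not pass, with a median log2 fold change of 0.24. In the other processome factors 12 of 23 rose and 2 fell. DHX37, the human counterpart of that yeast helicase, averaged 88.1 ± 3.92 CPM in siRNA-1 and 30.8 ± 2.51 CPM in siCTRL cells (SD, n = 3 each), a rise of 2.86-fold (adjusted p = 1.4e-08, edgeR). NAT10, an acetyltransferase of 18S ribosomal RNA, fell 1.39-fold (adjusted p = 5.3e-05). In the other late 40S factors 8 of 11 rose and 0 fell, led by the 18S methyltransferase gene BUD23 (log2 fold change 0.59), and the list's median log2 fold change was 0.29.

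In the other 60S factors 34 of 50 rose and 5 fell, with a median log2 fold change of 0.33. URB1 rose 1.76-fold (adjusted p = 1.2e-06, edgeR). NMD3, the adaptor that carries the 60S subunit out of the nucleus, averaged 17.9 ± 1.10 CPM in siRNA-1 and 45.7 ± 3.91 CPM in siCTRL cells (SD, n = 3 each), a fall of 2.56-fold (adjusted p = 1.5e-07). Of 13 other RNA polymerase I subunits and initiation factors 5 rose, led by POLR1E (1.55-fold), and 2 fell, led by POLR1F (1.34-fold). Of 23 exosome and RNase MRP genes 11 rose (47.8%), led by the exosome nuclease gene DIS3 (1.43-fold), and 2 fell, led by RPP30 (1.34-fold). Of 11 genes listed for the assembly of small nucleolar particles, not all of them assembly factors, 4 rose and 2 fell. SNU13 led the rises (1.37-fold) and ZNHIT6 the falls (1.45-fold). The shares that rose in the polymerase I and small nucleolar lists, 38.5% and 36.4%, were near the 31.5% of all genes tested. Among cytosolic ribosomal protein genes, the parts of the finished ribosome, 17 of 78 rose and 13 fell, while 48 did not pass. Their median log2 fold change was 0.03, and the share that rose, 21.8%, was below the 31.5% of all genes tested. RPL17 rose by 0.69 on the log2 scale, at low levels of 11.4 ± 1.22 CPM in siRNA-1 and 7.04 ± 1.67 CPM in siCTRL cells. RPL14 fell by 0.68, at 212 ± 7.13 CPM in siRNA-1 and 340 ± 19.7 CPM in siCTRL cells (SD, n = 3 each). Reads of such genes are shared with pseudogenes.

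**Figure D5:**
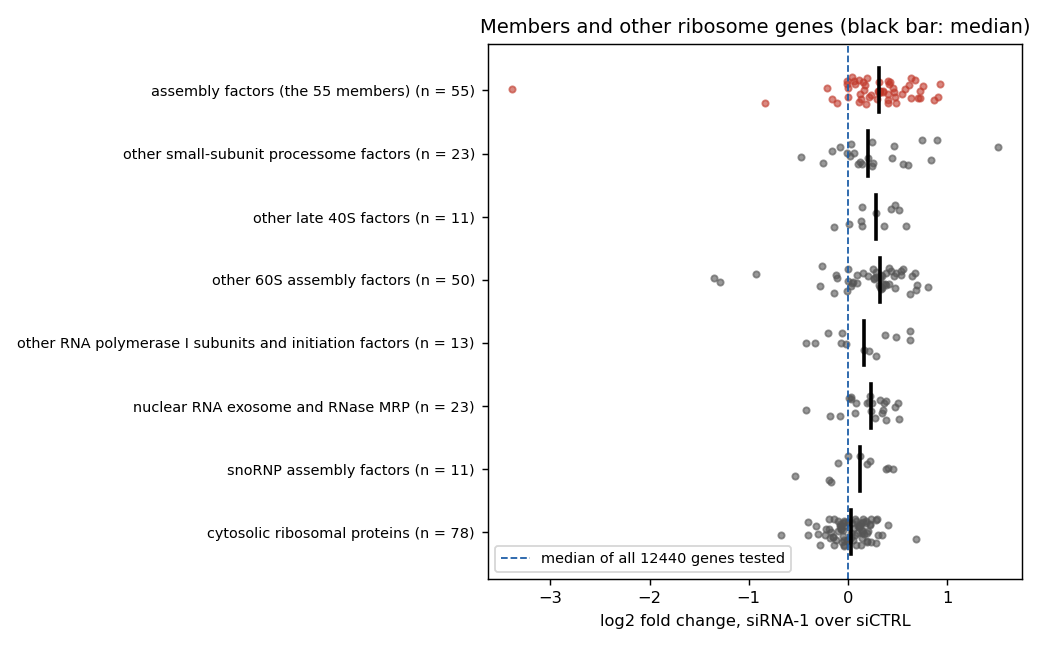
Log2 fold change, siRNA-1 over siCTRL, of the 55 tested members (red) and of genes in other lists of ribosome genes (grey), 1 point per gene; black bars are medians and the dashed line is the median of all 12440 genes tested. The member median lies at 0.32 and that of ribosomal protein genes at 0.03.

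Promoters were searched because the members mostly moved together. RefSeq windows on GRCh38.p14, from 250 bases before to 50 after each gene start, matched 47 members by symbol. The palindrome CACGTG, the E-box form that MYC and MAX bind, was in 18 of the 47 (38.3%), against 10.02% of promoters of tested genes and 7.43% of all promoters. It was in 12 of 30 members that rose, 1 of 3 that fell and 4 of 13 that did not pass, and in the untested NOP2. The ETS-type sequence CCGGAAG, on either strand, was in 19 of 47 members (40.4%), FCF1 among them, and in 19.4% of promoters of tested genes. By call, CCGGAAG was in 15 of 30 members that rose, 1 of 3 that fell and 3 of 13 that did not pass. The palindrome that NRF1 binds was in 3 of 47 members (6.38%), DKC1, NOB1 and UTP18, and in 2.29% of promoters of tested genes. Such matches are descriptions of letters in these windows. BYSL and IMP4, which rose, were among the 12 with CACGTG. For the members with the largest rise or fall of their role group that hold CACGTG, the E-box is shown in capitals with 12 bases on either side, 5′ to 3′ on the strand of the gene. The place given is that of its first base.
UTP4, plus strand, chr16:69132621-69132650, 16 bases before the gene start: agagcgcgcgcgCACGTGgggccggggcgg
RRP9, minus strand, chr3:51941892-51941921, 5 bases before the gene start: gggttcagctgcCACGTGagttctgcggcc
WDR43, plus strand, chr2:28894658-28894687, base 4 after the gene start: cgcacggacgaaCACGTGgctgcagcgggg

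UTP4 and RRP9 rose and WDR43 fell, so the E-box was present in promoters of genes that moved either way. In the MYC and MAX network, 2 of 9 genes rose and 4 fell, against 31.5% and 31.0% of all genes tested. MYC itself, named here after its value was seen, averaged 119.8 ± 6.74 CPM in siRNA-1 and 174 ± 9.18 CPM in siCTRL cells (SD, n = 3 each), a fall of 1.45-fold (adjusted p = 1.3e-05, edgeR). MXI1, which encodes an antagonist of MYC, fell 2.73-fold (adjusted p = 1.2e-08), and MLX rose 1.37-fold (adjusted p = 4.5e-05). These are RNA levels and say nothing of protein or of the rate of ribosome production.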

How the data were processed

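The authors' deposited table gives raw read counts per Ensembl gene for 6 libraries of MDA-MB-231 cells. Per the submitters' processing notes, HTSeq, STAR, Trimmomatic and kallisto were used on the build hg38; no source used here gives versions, annotation release, strand setting or filters. Symbols were matched by Ensembl identifier for all 20042 genes, and positions and exons came from GENCODE release 29.

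Genes were kept by filterByExpr (minimum count 10, minimum total 15), libraries were scaled by TMM, and siRNA-1 was compared with siCTRL by the quasi-likelihood F test of edgeR 4.0.16 in R 4.3.3, two-sided, with group as the only term and Benjamini-Hochberg adjustment over 12440 genes. Each SE is the log2 fold change divided by the square root of F. The steps were run on simulated counts in which few genes changed, equally in both directions. That run did not cover changes as widespread as those called here. Alternatives are named in the closing section, and used DESeq2 1.42.0 and limma 3.58.1.

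Named with all values were FCF1 and, per role group, the member with the largest rise and fall among called genes whose groups did not overlap; the rest are given by fold change, except as follows. In other lists the largest rise and fall were named where mean log2 CPM was 1 or more. IMP4, UTP3, NHP2, NOP56, BYSL, NOP2, GNL3, NOLC1, UTP23, NOB1, NCL, NPM1, PWP2 and MYC were given more fully after their values were seen. A search of promoters for a further palindrome and 1 listed marker are not reported here. The members and lists were chosen with earlier results of these data known.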

Additional observations from a re-analysis of the deposited data

How the results depend on the processing

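Of the 14 alternatives, 6 left out 1 library each. The others were limma-voom or the Wald test of DESeq2 in place of edgeR, size factors of DESeq2 or library size alone in place of TMM, a minimum mean of 100 counts or no minimum, the replicate number as a block, and a threshold of 0.01. FCF1 and WDR43 fell under all 14 alternatives, FCF1 with log2 fold changes of -3.47 to -3.35. Of the 37 rises, 31 held under all 14; LTV1, NCL, NIP7, NOB1, NOL10 and WDR75 did not. The count of members that fell, 4 with all libraries, was 2 without scaling beyond library size, 2 with no filter on low counts, 2 by the DESeq2 Wald test, 2 at an adjusted p of 0.01, and between 2 and 4 when each library was left out in turn. TBL3 and RRP1B were the calls lost: both without siRNA-1 replicate 1, 2 or 3 or siCTRL replicate 1, and TBL3 without siCTRL replicate 3. The cause was not tested. With the replicate number as a block, 34 members rose and 3 fell, against 3804 and 3731 of all genes tested. Over the 14 alternatives, 3096 to 4329 of all genes rose and 3110 to 4306 fell. Same-numbered libraries did not deviate together (correlations 0.067, -0.078 and -0.057), and not every library correlated best with its own number. With 3 libraries per group, such values cannot show whether the numbers pair the samples. The median log2 fold change of the members ranged from 0.28 to 0.36 over the alternatives. Signs turned only at HEATR1, NOP56, UTP6, WDR12, RCL1 and ISCA2, none of which passed the test. UTP6 was -0.0026 with DESeq2 size factors, -0.0024 by the Wald test and -0.032 at a mean of at least 100 counts, and WDR12 was -0.0014, -0.0014 and -0.031. ISCA2 was -0.027 at that mean. HEATR1 was 0.029 without scaling and 0.0040 without a filter, and NOP56 was 0.032 and 0.0061. Leaving out 1 library gave -0.057 to 0.022 for HEATR1, -0.044 to 0.015 for NOP56, -0.077 to 0.051 for UTP6, -0.041 to 0.030 for WDR12, -0.022 to 0.31 for RCL1 and -0.068 to 0.064 for ISCA2. NOP2, with at most 5 counts per library, was not tested; the parts of depth and of its overlap with another gene in that count were not tested. The widest errors were at members with few counts, PWP2 (SE 0.266) and RCL1 (SE 0.185).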
